A study of Ambystoma mexicanum with 12 samples.

Results

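The 60 genes described here were measured in regenerating forelimbs of the axolotl (Ambystoma mexicanum). All came from genes in which 0.1 uM talarozole and the proximal vehicle group each differed little from the distal vehicle group. Among those, the 60 stood most clearly above the other libraries in blastemas exposed to 1 uM talarozole. They were 60 of 99081 identifiers in the table. The choice used the measured values of all 12 libraries, so the levels and differences that follow from it describe the genes and are not tested. Of 56805 identifiers with the prefix AMEX60DD and not AMEX60DDU, 21835 had at least 10 estimated counts in at least 3 libraries. For these, levels were taken as log2(CPM + 0.5), where CPM is the count scaled to a library total of 1000000. In 222 genes (1.02% of the 21835) the 1 uM talarozole mean was at least 1 log2 unit above the DMSO distal mean, while the 0.1 uM talarozole and DMSO proximal means were each within 0.5 of it. Of the 222, 108 were higher in every 1 uM library than in every other library analysed, and the 60 members were those with the widest gap, which is the lowest 1 uM value minus the highest value of the other 9 libraries. The gap was above 0 in all 60, and 644 of the 21835 genes (2.95%) had all 3 libraries of 1 uM above all 9 others. Because the rule fixes this count for the members, nothing is read from it.

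The tissue was the forelimb blastema, the bud of proliferating cells that covers an amputated salamander limb and regrows what was lost. Distal blastemas followed amputation at mid-carpal level and came from animals kept with the vehicle DMSO, with 0.1 uM talarozole (TAL) or with 1 uM TAL in the housing water. Proximal blastemas followed amputation at the upper humerus and came from animals kept with DMSO. Each of these 4 groups had 3 libraries, and each library was a pool of 3 blastemas collected 14 days post amputation from white (d/d) animals, 3 months old and 5 cm long. Dosing began at day 4 and went on for 7 days with renewed drug or DMSO, so all blastemas were collected after the drug had been withdrawn. The labels do not say whether the pools of a group came from different animals, so the spread between libraries may in part be technical.

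Retinoic acid is a vitamin A derivative that binds nuclear receptors and so changes transcription of its target genes. In salamander limbs, added retinoic acid makes distal blastemas regrow more proximal structures, and the CYP26 enzymes that talarozole inhibits clear it from the tissue. The question behind the doses was what excess of the animal's own retinoic acid does to proximodistal patterning. No gene names stand beside the identifiers in the table, and 0 identifiers matched the RefSeq gene list of the assembly UKY_AmexF1_1. The members are therefore given by identifier, without role, position or sequence, and markers of blastema cell types could not be looked up. In these bulk libraries, more cells of a type and more RNA per cell cannot be told apart.

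Total estimated counts were 11977855 to 13937318 in the 1 uM TAL libraries and 8409618 to 11122731 in the other 9, so each 1 uM library was deeper than each other library. Levels are scaled by library total, but the detection of weak genes can still depend on depth, and the part of depth in the results was not tested. Identifiers with at least 1 count numbered 42886, 47144 and 46574 in the 1 uM TAL libraries and 39240 to 48339 in the other 9. Over all 21835 genes the median difference between 1 uM TAL and DMSO distal was 0.15 on the log2 scale, and the members' differences are best read against that shift. The shift depends on the scaling: in place of totals, edgeR's TMM factors gave 0.13 and DESeq2 size factors 0.045. The members' median was 1.54 and 1.46 in that order. The first 1 uM library alone was the highest of the 3 for 62.2% of all genes. Other groups also had a leading library. The second DMSO distal library was highest of its group for 58.7% of all genes. The first 0.1 uM TAL and the first DMSO proximal libraries were so for 46.1% and 46.3%.

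Summed over the 60 members, expression was 1868, 1771 and 1818 CPM in the 1 uM TAL libraries. The sums were 504, 579 and 636 CPM in 0.1 uM TAL libraries, 678, 592 and 388 CPM in DMSO proximal libraries and 375, 655 and 671 CPM in DMSO distal libraries. The 1 uM values lay close together and far above the rest, while the other 3 groups overlapped. The rule favours this pattern, so the sums are a description only. The 6 most abundant members held 72.8% of the sum at 1 uM. The median member was 1.57 log2 units higher at 1 uM TAL than in DMSO distal blastemas, with a range of 1.05 to 3.27. Between 1 and 0.1 uM TAL the median difference was 1.76, and between 1 uM TAL and DMSO proximal 1.60, where the medians of all genes were 0.20 and 0.14. At 0.1 uM TAL the members differed from DMSO distal by a median of 0.0012, with a range of -0.49 to 0.49, and in DMSO proximal blastemas by a median of -0.0051, with a range of -0.48 to 0.47. The rule also bounds those 2 ranges.

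**Figure D1:**
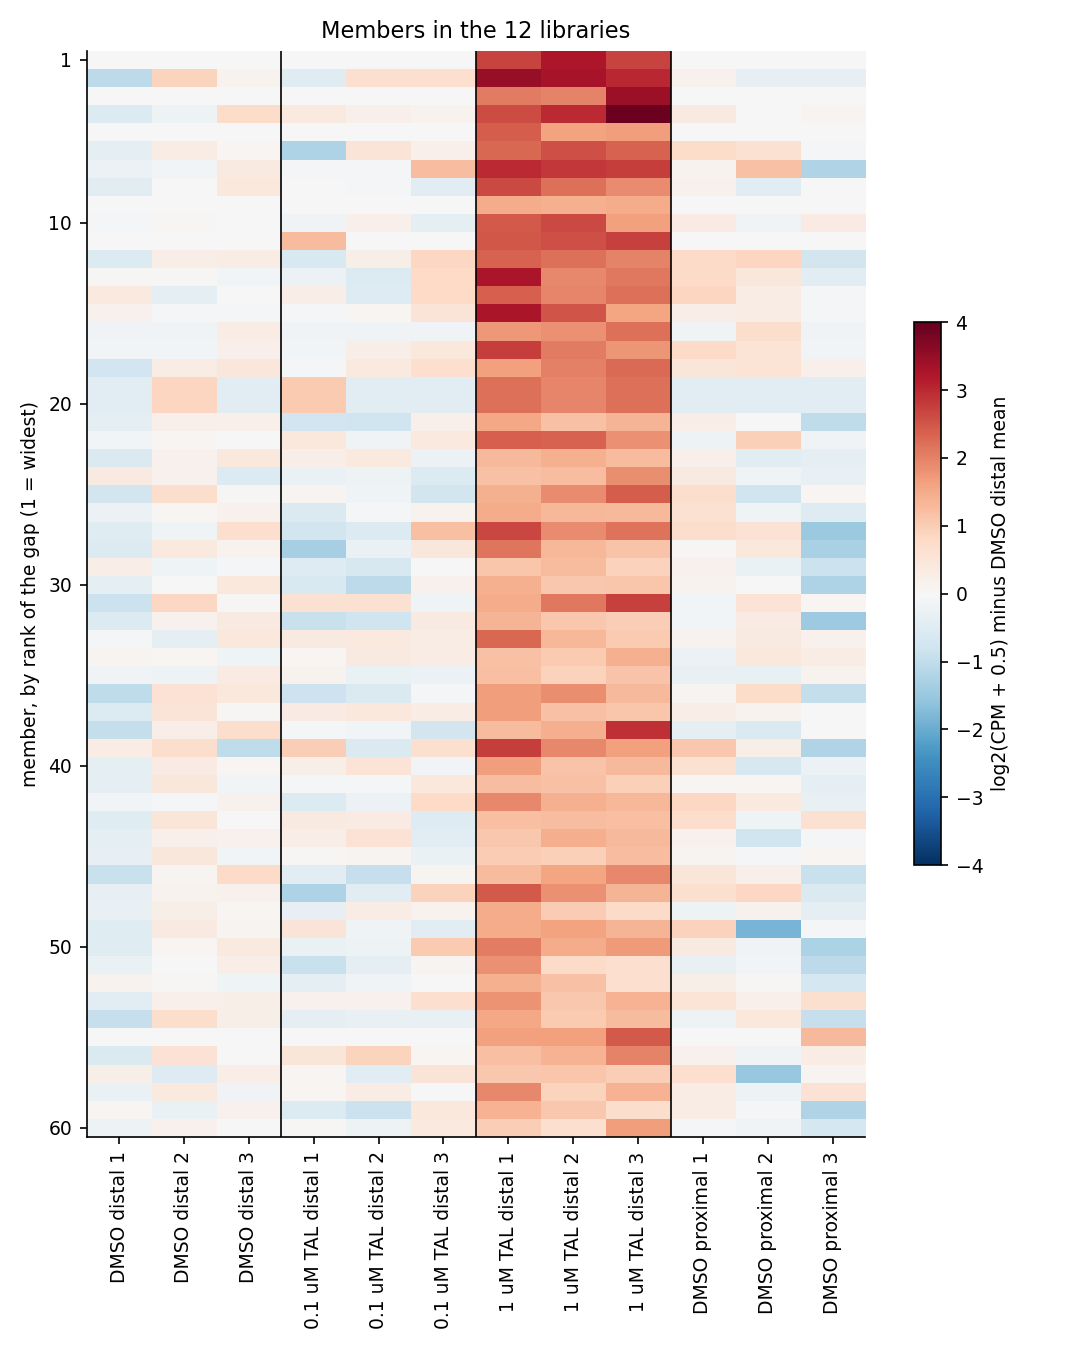
The 60 members (rows, by rank of the gap) in the 12 libraries (columns, grouped by treatment and amputation level), coloured by log2(CPM + 0.5) minus the DMSO distal mean. The 3 columns of 1 uM TAL are red throughout, as the rule requires, while the other 9 columns scatter around 0. Among those 9 the members' median is lowest in the first DMSO distal library (-0.32) and highest in the first DMSO proximal library (0.18).

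The members spanned a wide range of levels. At 1 uM TAL, 8 members averaged under 2 CPM, 19 from 2 to under 5 CPM, 19 from 5 to under 20 CPM, 8 from 20 to under 100 CPM and 6 at least 100 CPM. In that order of classes the difference from DMSO distal had medians of 1.51, 1.56, 1.88, 1.27 and 1.66, with no steady trend with level. Of the 60, 26 differed by 1 to under 1.5 log2 units, 14 by 1.5 to under 2, 18 by 2 to under 3 and 2 by more. The pseudocount of 0.5 CPM holds down the differences of the weakest genes.

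The widest gap, 2.69 log2 units, belonged to AMEX60DD013106. It was at 0 counts in each DMSO distal and each 0.1 uM TAL library and at 2.73, 4.21 and 2.72 CPM in the 1 uM TAL libraries. DMSO proximal libraries held 0 counts of it as well. These levels rest on 38.0, 54.9 and 32.6 estimated counts at 1 uM. Against a floor of 3 counts per DMSO distal library (0.299 CPM) it was at least 10.8-fold higher at 1 uM TAL. Among the libraries analysed it was thus detected in the 1 uM pools and in no other, a pattern that 4 of the 60 members showed.

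AMEX60DD039201 was the second gene of that kind with a wide gap (1.99). It was at 0 counts in DMSO distal and 0.1 uM TAL libraries, at 1.59, 1.49 and 4.83 CPM at 1 uM TAL and at 0 counts in DMSO proximal libraries, which makes it at least 8.83-fold higher at 1 uM TAL than in DMSO distal blastemas. The third 1 uM library was the highest by far, so the mean of 2.64 ± 1.90 CPM (SD, n = 3) leans on 1 pool. AMEX60DD035959 (gap 1.61) was at 2.20, 1.03 and 1.09 CPM at 1 uM TAL, from 30.7, 13.4 and 13.1 counts, and at 0 counts in the other 9 libraries, at least 4.82-fold higher. AMEX60DD051846, the weakest member, was at 0.908, 0.848 and 0.901 CPM at 1 uM TAL, from 12.7, 11.1 and 10.8 counts, and at 0 counts elsewhere, at least 2.97-fold higher. These 4 were the only genes among the 21835 that had 0 counts in all 9 other libraries. The count minimum keeps such a gene only if each 1 uM library holds at least 10 counts, so it admits them only where all 3 libraries are high.

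AMEX60DD049487 had the largest difference of all members. It was at 0, 1.42 and 0.639 CPM in DMSO distal libraries, at 0.229, 1.11 and 1.13 CPM at 0.1 uM TAL, at 10.98, 9.58 and 7.90 CPM at 1 uM TAL, and at 0.657, 0.317 and 0.320 CPM in DMSO proximal libraries. The mean was 9.49 ± 1.54 CPM (SD, n = 3) at 1 uM TAL against 0.686 ± 0.711 CPM (SD, n = 3) in DMSO distal blastemas, a ratio of 13.8 and a log2 difference of 3.27. The 3 groups other than 1 uM TAL overlapped one another, and the 1 uM libraries lay well clear of them.

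AMEX60DD003207 was at 0.0280, 0.171 and 0.779 CPM in DMSO distal libraries, at 0.497, 0.392 and 0.341 CPM at 0.1 uM TAL, at 4.22, 5.53 and 11.1 CPM at 1 uM TAL, and at 0.477, 0.268 and 0.335 CPM in DMSO proximal libraries. The third 1 uM library was the highest, and the smallest distance to another group was a gap of 1.88. AMEX60DD015939 was steadier, with 7.59, 9.53 and 7.94 CPM at 1 uM TAL against 0.789, 1.53 and 1.26 CPM in DMSO distal libraries. At 0.1 uM TAL it was at 0.207, 1.86 and 1.40 CPM, and in DMSO proximal libraries at 2.28, 2.04 and 1.06 CPM, so its nearest neighbours in level were proximal pools.

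**Figure D2:**
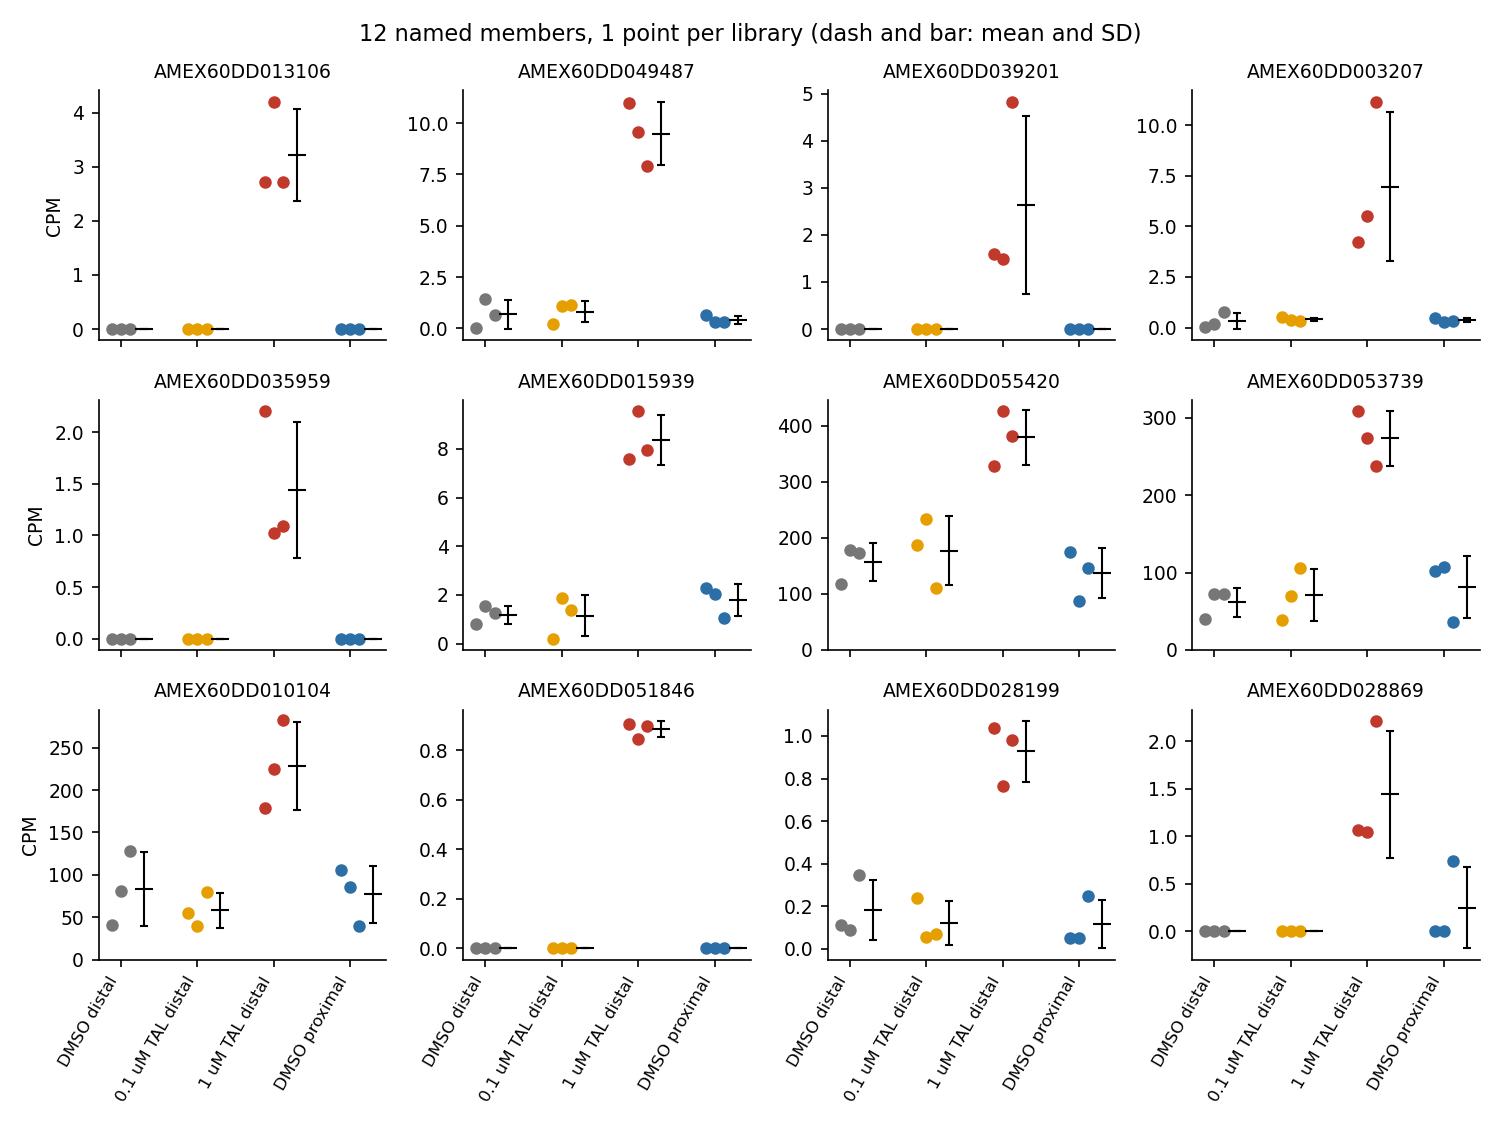
CPM of 12 members in the 12 libraries, with each group's mean and SD drawn beside its 3 points: the 6 with the widest gap, then the 3 most and the 3 least abundant of the rest. In every panel the 1 uM TAL points lie above all others, and 4 panels show 0 in all 9 other libraries.

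The abundant members carried most of the summed signal. AMEX60DD055420, the most abundant, was at 118, 179 and 174 CPM in DMSO distal libraries, at 187, 233 and 111 CPM at 0.1 uM TAL, at 328, 427 and 382 CPM at 1 uM TAL, and at 175, 87.9 and 147 CPM in DMSO proximal libraries. Its mean was 379 ± 49.5 CPM (SD, n = 3) at 1 uM TAL against 157 ± 33.8 CPM (SD, n = 3) in DMSO distal blastemas, a ratio of 2.42. AMEX60DD053739 was at 40.3, 71.7 and 72.5 CPM in DMSO distal libraries, at 38.5, 70.3 and 105 CPM at 0.1 uM TAL, at 309, 274 and 237 CPM at 1 uM TAL, and at 101, 108 and 35.6 CPM in DMSO proximal libraries. Its mean at 1 uM TAL was 273 ± 35.6 CPM (SD, n = 3) against 61.5 ± 18.3 CPM (SD, n = 3) in DMSO distal blastemas, a ratio of 4.45. For both genes the groups other than 1 uM TAL overlapped.

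AMEX60DD010104 was at 40.5, 80.6 and 128 CPM in DMSO distal libraries, at 54.8, 39.2 and 79.8 CPM at 0.1 uM TAL, at 179, 225 and 282 CPM at 1 uM TAL, and at 105, 86.2 and 39.8 CPM in DMSO proximal libraries. The DMSO distal pools were widely spread, at 83.0 ± 43.8 CPM (SD, n = 3), and the highest of them set the gap of 0.48. AMEX60DD026561 was added after its values were seen, because it had the largest difference (2.86) among the 6 members of at least 100 CPM. It was at 23.8, 26.0 and 36.1 CPM in DMSO distal libraries, at 26.6, 26.8 and 67.1 CPM at 0.1 uM TAL, at 228, 202 and 194 CPM at 1 uM TAL, and at 31.2, 63.7 and 11.8 CPM in DMSO proximal libraries. Its 1 uM TAL mean was 208 ± 17.5 CPM, against 35.6 ± 26.2 CPM in DMSO proximal blastemas (SD, n = 3 each), where the pools were far apart for their level.

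The other weak members named by the rule show how few counts lie behind the low end. AMEX60DD028199 was at 1.04, 0.766 and 0.980 CPM at 1 uM TAL, from 14.4, 10 and 11.7 counts, against 0.111, 0.0902 and 0.345 CPM in DMSO distal libraries. In 0.1 uM TAL libraries it was at 0.239, 0.0543 and 0.0686 CPM, and in DMSO proximal libraries at 0.0486, 0.0527 and 0.247 CPM. AMEX60DD028869 was at 1.06, 1.05 and 2.21 CPM at 1 uM TAL, at 0 counts in all 0.1 uM TAL and DMSO distal libraries, and at 0, 0 and 0.738 CPM in DMSO proximal libraries. A single proximal pool with 6.21 counts separates it from the 4 genes seen in 1 uM libraries only, among the 12 analysed. Over the whole list, 46 members were above 0 in all 9 other libraries, 9 were at 0 in at least 5 of them, and for 19 the highest count among the 9 was under 10.

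The limit of 60 falls within a continuous series. The last members inside it were AMEX60DD008677 and AMEX60DD008793, with gaps of 0.292 and 0.286. AMEX60DD008677 was at 14.1, 11.4 and 8.64 CPM at 1 uM TAL and at 1.95 to 6.96 CPM in the other 9 libraries. AMEX60DD008793 was at 2.56, 1.98 and 4.43 CPM at 1 uM TAL and at 0.446 to 1.53 CPM in the other 9. The first genes outside it, AMEX60DD041026 and AMEX60DD031796, had gaps of 0.284 and 0.277. AMEX60DD041026 was at 96.6, 43.3 and 37.1 CPM at 1 uM TAL and at 7.02 to 30.4 CPM elsewhere, and AMEX60DD031796 at 0.733, 0.949 and 1.52 CPM at 1 uM TAL and at 0.0235 to 0.518 CPM elsewhere.

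The same conditions were then applied with other groups as the high one, with DMSO distal as the base each time. They were met by 222 genes for 1 uM TAL, 72 genes for 0.1 uM TAL and 100 genes for DMSO proximal, which are 1.02%, 0.330% and 0.458% of the 21835. The gap was above 0 in 108 genes for 1 uM TAL, 7 genes for 0.1 uM TAL and 32 genes for DMSO proximal, and above 1 in 17, 3 and 4 genes in that order. The widest single gap was not at 1 uM, with 2.69 for 1 uM TAL, 2.50 for 0.1 uM TAL and 3.28 for DMSO proximal. The 3 counts share the DMSO distal libraries and were not tested against each other. Over all genes the median difference from DMSO distal was 0.15 for 1 uM TAL, -0.055 for 0.1 uM TAL and -0.012 for DMSO proximal. Each 1 uM library was also deeper than each other library, and the part of shift and depth in the counts was not tested. With DESeq2 size factors in place of totals, the numbers with a gap above 0 were 76 for 1 uM TAL, 8 for 0.1 uM TAL and 39 for DMSO proximal, so the counts moved with the scaling and kept their order.

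**Figure D3:**
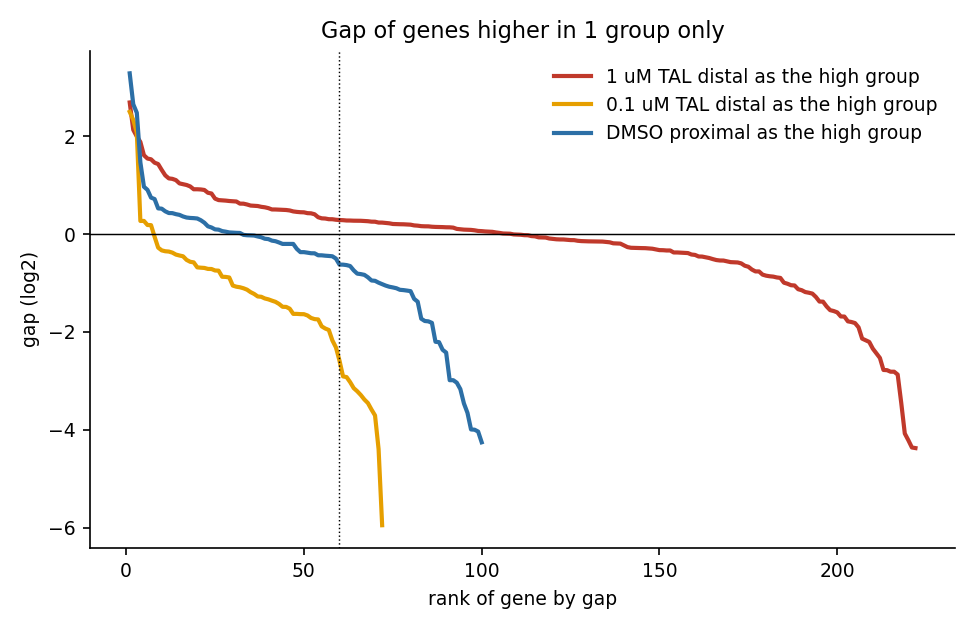
Gap on the log2 scale (vertical axis) against rank (horizontal axis) for genes that met the conditions on group means with 1 uM TAL, 0.1 uM TAL or DMSO proximal as the high group. The dotted line marks rank 60, where the 1 uM series is at 0.29, the 0.1 uM series at -2.58 and the proximal series at -0.62.

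Since every library took part in the choice, the rule was repeated without each 1 uM library in turn, and the 60 genes chosen from the remaining 11 libraries were read in the one left out. In the left-out library, 52, 53 and 49 of 60 chosen genes lay above all 9 libraries of the other groups, for 1 uM replicates 1, 2 and 3. Over all genes that passed the count minimum, the shares above all 9 were 32.5%, 9.86% and 8.15%, against 86.7%, 88.3% and 81.7% of the chosen genes. For 0.1 uM TAL chosen and read the same way the counts were 6, 8 and 6 of 60, against 8.18%, 5.71% and 2.31% of all genes. For DMSO proximal the counts were 22, 26 and 29 of 60, against 8.19%, 10.4% and 9.26%. The lists were unlike: all 60 genes chosen for 1 uM TAL had a gap above 0 in the libraries that chose, against 14, 17 and 38 of 60 for 0.1 uM TAL and 60, 55 and 49 for DMSO proximal. Among the genes with a gap above 0 the shares above all 9 were 14.3%, 23.5% and 13.2% for 0.1 uM TAL and 36.7%, 45.5% and 51.0% for DMSO proximal. The 9 other libraries serve both in choosing and in reading, which favours chosen genes in all 3 series. With size factors the counts were 39, 42 and 46 of 60 for 1 uM TAL, 11, 8 and 7 for 0.1 uM TAL and 24, 34 and 31 for DMSO proximal. The shares of all genes under that scaling were 14.6%, 8.70% and 8.399% for 1 uM TAL, 7.74%, 7.74% and 5.80% for 0.1 uM TAL and 7.82%, 22.1% and 12.4% for DMSO proximal.

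The size of the difference was smaller in the library left out. The median difference from DMSO distal of the genes chosen was 1.26, 1.10 and 1.07 in the left-out 1 uM replicates 1, 2 and 3, against 1.37, 1.45 and 1.53 in the pairs of 1 uM libraries that chose them. The median over all genes in those left-out libraries was 0.32, 0.085 and 0.039. The DMSO distal libraries took part in the choice and are the base of these differences, which favours chosen genes over all genes. The same holds for the differences under another count minimum below. Chosen for 0.1 uM TAL, the medians in the left-out libraries were 0.13, 0.23 and -0.0032, against 1.23, 1.25 and 1.24 in the libraries that chose. Chosen for DMSO proximal, they were 0.46, 0.65 and 0.88, against 1.31, 1.32 and 1.38. In all 3 series the left-out pool gave the smaller value.

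The counts in left-out libraries depend on the count minimum, which asks for 10 counts in 3 of the 11 libraries that choose. With 1 uM libraries down to 2, it removes every gene with under 10 counts in each of the other 9 libraries. For that reason 19 of the 60 members, AMEX60DD013106 and AMEX60DD003207 among them, could not be chosen at all. Not all of the 19 were close to absent elsewhere: AMEX60DD030738 had 1.35 to 8.25 counts in the other 9 libraries. With 10 counts in 2 libraries instead, an alternative added after the data were seen, 37, 39 and 30 of 60 genes lay above all 9 in the left-out 1 uM library, against 30.2%, 9.67% and 8.17% of all genes. Their median difference there was 1.27, 1.25 and 0.63, against 2.06, 2.16 and 2.36 in the libraries that chose them. The same minimum gave 11, 10 and 10 of 60 for 0.1 uM TAL, against 8.14%, 5.81% and 2.58% of all genes. For DMSO proximal it gave 25, 25 and 26 of 60, against 8.17%, 10.2% and 9.21%, with median differences of 0.47, 0.56 and 0.36 against 1.54, 1.52 and 1.49 in the libraries that chose. In the third 1 uM library the median thus lay further below that of the libraries that chose than in any proximal library. The distance between the 1 uM and proximal series was smaller with the minimum in 2 libraries, and in the third 1 uM library 30 stood against 26 at most. A gene can pass that minimum through the 2 libraries of the high group that choose it. The cause of the change was not tested. The other 41 members were each chosen at least once under the first minimum, and 30 were chosen all 3 times, AMEX60DD049487 and AMEX60DD015939 among them.

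**Figure D4:**
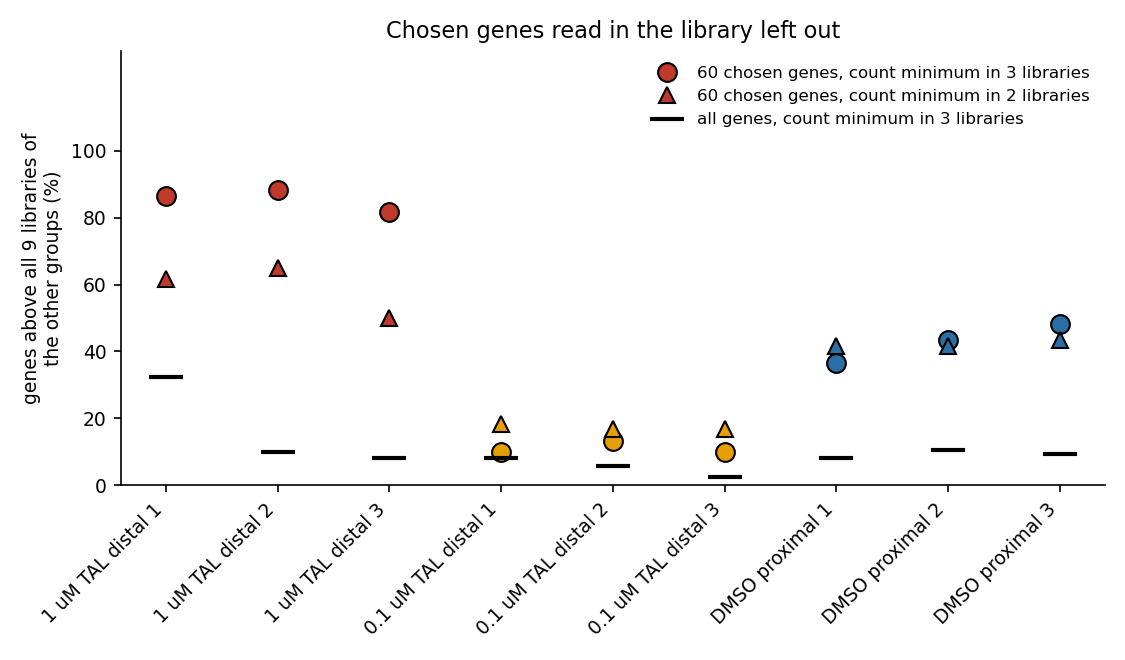
Share of genes (vertical axis, percent) that lie above all 9 libraries of the other groups in a library left out of the choice, for each library of 1 uM TAL, 0.1 uM TAL and DMSO proximal. Circles stand for 60 genes chosen with 10 counts in 3 libraries, triangles for 60 chosen with 10 counts in 2, and dashes for all genes: circles reach 81.7 to 88.3% at 1 uM TAL, 10 to 13.3% at 0.1 uM TAL and 36.7 to 48.3% in DMSO proximal libraries.

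The members were also looked up in a count model fitted to all genes, edgeR's quasi-likelihood test with Benjamini-Hochberg adjustment. Its common coefficient of variation between libraries of a group (SD over mean, beyond counting noise) was 1.01. Its low-count filter passed 57 of the 60 members, and AMEX60DD035959, AMEX60DD051846 and AMEX60DD028199 were not tested. Between 1 uM TAL and DMSO distal, 0 of the 57 were called at an adjusted p under 0.05, where 0.00478% of 41884 genes were called higher and 0.0239% in either direction. Between 1 and 0.1 uM TAL it was also 0 of 57, with 0% of all genes called higher and 0.0119% in either direction, and between 1 uM TAL and DMSO proximal 0 of 57, with 0%. These 41884 include AMEX60DDU identifiers, and 21537 of them have the members' prefix. At an unadjusted p under 0.05, 48, 51 and 49 of the 57 were higher at 1 uM TAL in these comparisons, against 2.31%, 3.44% and 4.02% of all genes tested and 3.54%, 5.81% and 6.31% of those with the members' prefix. The DESeq2 Wald test called 26 of 57 members higher against DMSO distal, 20 of 45 with an adjusted p against 0.1 uM TAL and 21 of 45 against DMSO proximal, where it called 0.467%, 0.448% and 0.667% of all genes with an adjusted p and 0.653%, 0.577% and 0.845% of those with the members' prefix. The rule used these same contrasts, so nothing about the members is read from their counts of calls. With 0% to 0.00478% of all genes called higher by edgeR, 0 of 57 is near the general share and not particular to the members. The members were chosen by rank among 12 libraries and not by a test.

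Variation within groups was examined for the 26 members that averaged at least 2 CPM over the other 9 libraries, and the 34 below that level were left out. Deviations from the group means were correlated across those 9 libraries, with a median Pearson r of 0.49. Of the 325 pairs of members 36.0% had a Pearson r above 0.7 and 0.308% an r below -0.7, against 17.0% and 2.40% of all pairs of 14619 genes at that level. These values describe 9 libraries that all pairs share, and pairs are not independent. The members were also chosen by their values in these 9 libraries and genes in general were not, so the excess over all pairs is not a test. Clustering parted the 26 into a set of 18, with AMEX60DD026561, AMEX60DD053739 and AMEX60DD010104, and a set of 8, with AMEX60DD055420. The sets were drawn from these same deviations. Agreement within a set and differences between the sets over the 9 libraries are therefore built in and were not tested.

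In the set of 18, all 18 genes were above their group mean in the third 0.1 uM TAL library and 0 of 18 in the third DMSO proximal library, with mean deviations of 0.63 and -0.79 log2 units. The median of all genes deviated by -0.14 and -0.034 there. In the set of 8, the third 0.1 uM TAL library was low instead (-0.40, with 0 of 8 above the group mean). The first DMSO distal library, at -0.56, and the second DMSO proximal library, at -0.52, were also low, where the median of all genes deviated by -0.27 and -0.061. At 1 uM TAL, 17 of the 18 were above the group mean in the first library, against 1 of the 8. The median of all genes deviated by 0.18 in that library, which alone was the highest of its group for 62.2% of all genes. Both sets were low in the first DMSO distal library (-0.39 in the 18) and high in the second DMSO distal library (0.14 in the 18, 0.45 in the 8) and the first DMSO proximal library (0.38 in the 18, 0.37 in the 8). The median of all genes moved the same way, by -0.27, 0.21 and 0.12 in that order. In the second DMSO distal library the mean of the 18 thus lay below the median of all genes.

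**Figure D5:**
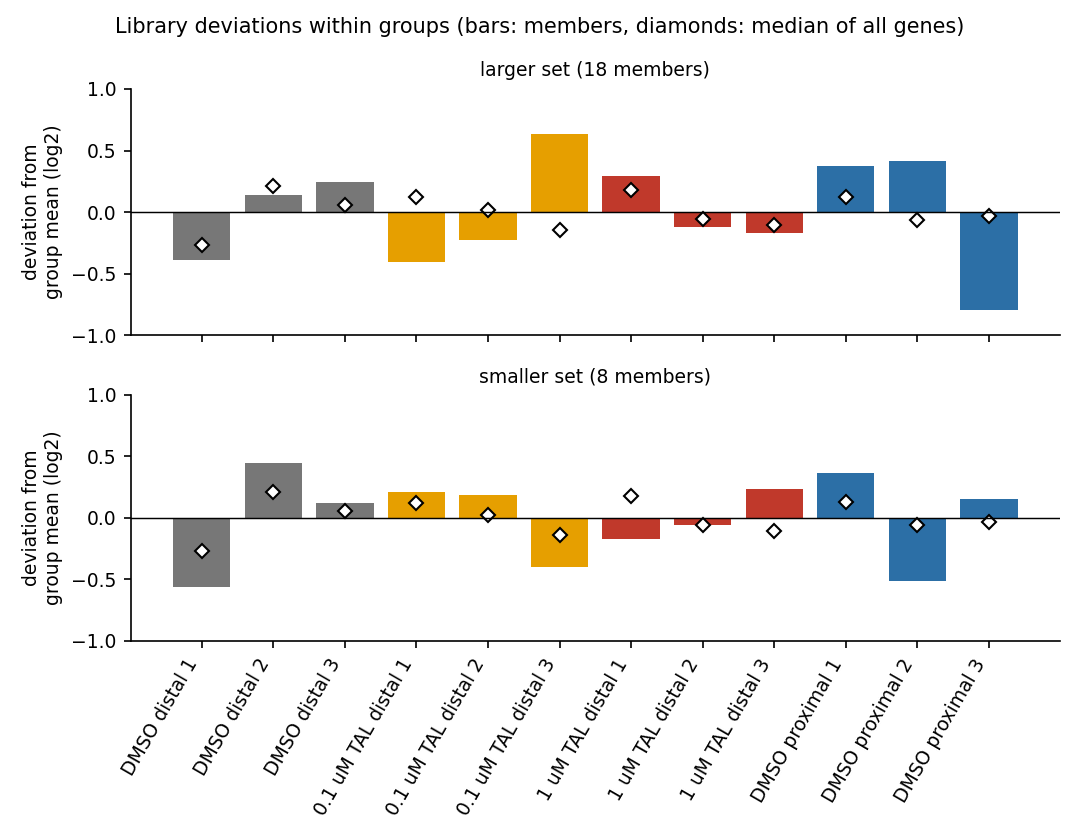
Mean deviation from the group mean (log2, bars) of the 18 and the 8 members that varied together, in each of the 12 libraries, with the median of all genes as diamonds. The bars of the 18 peak in the third 0.1 uM TAL library and are lowest in the third DMSO proximal library, while the bars of the 8 are lowest in the first DMSO distal library.

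Other pools set the upper edge of the background. The highest of the 9 other libraries was DMSO proximal replicate 1 for 14 members, 0.1 uM TAL replicate 3 for 11 and DMSO distal replicate 3 for 10, and each remaining library was highest for 2 to 6. The 4 members at 0 counts in all 9 had no highest one. Shares of all genes are not given for these counts, so nothing about the members is read from them. Within its own group, DMSO proximal replicate 1 was highest for 30 members and 46.3% of all genes. For 0.1 uM TAL replicate 3 it was 28 members and 24.7%, and for DMSO distal replicate 3 it was 23 members and 24.5%. Among the 1 uM libraries, replicate 1 was highest for 35 members, replicate 2 for 10 and replicate 3 for 15, where all genes were highest in replicate 1 in 62.2%, in replicate 2 in 17.9% and in replicate 3 in 18.3%. The first 1 uM library was thus the most frequent high one for members and for genes in general.

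A few members shared values or stood close in identifier number. AMEX60DD000515 and AMEX60DD051930 had identical values in all 12 libraries, 2.63, 2.11 and 2.61 CPM at 1 uM TAL each. Of the 21835 genes, 614 had values identical to another identifier, and reads of such pairs cannot be told apart in this table. Counted once, the pair leaves 59 distinct members. AMEX60DD028199, AMEX60DD028204 and AMEX60DD028205 lie within 6 identifier numbers. AMEX60DD028204 was at 3.64, 2.57 and 1.95 CPM at 1 uM TAL and at 0 to 0.393 CPM elsewhere, and AMEX60DD028205 at 4.60, 2.55 and 1.07 CPM at 1 uM TAL and at 0 to 0.265 CPM elsewhere. None of the 4 identifiers between AMEX60DD028199 and AMEX60DD028204 passed the count minimum. AMEX60DD015939 and AMEX60DD015943 are 4 numbers apart, and 2 of the 3 identifiers between them passed the count minimum. Of these 2, 1 also had its 3 libraries at 1 uM TAL above all 9 others, where 2.95% of the 21835 genes did. AMEX60DD035959 and AMEX60DD035968 are 9 apart, and of the 8 identifiers between them 3 passed the count minimum and 0 lay above all 9 others. These genes were singled out after their values were seen, and nothing in the table says whether neighbouring numbers are neighbouring genes.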

How the data were processed

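RNA was sequenced from 12 pooled blastema libraries in 4 groups of 3, grouped by their labels. The authors deposited estimated counts per gene identifier for the series. Salmon 0.13.1 and Trimmomatic 0.38 are named in the submitters' processing notes; the transcript index and annotation are not given in the sources used here. In the table, 3 columns named for a higher talarozole dose matched no sample label and are not analysed here.

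CPM was computed as the estimated count scaled to a column total of 1000000, and levels as log2(CPM + 0.5). For the count model, estimated counts were rounded and fitted with edgeR 4.0.16 in R 4.3.3 (filterByExpr, TMM, quasi-likelihood F test) over all 12 libraries with 4 group means. Calls were made at a Benjamini-Hochberg adjusted p under 0.05 over all genes tested. DESeq2 1.42.0 was an alternative. The scripts were tested on simulated data with planted differences. For the member rule, the simulated libraries differed only by sampling noise and the planted genes were abundant. For edgeR, genes with a spread below the median were planted. Both settings were easier than the data, so they check the code and not the results.

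The members, lists and tests were chosen with earlier results of these data known. The members named were the 6 with the widest gap, the 3 highest and 3 lowest of the rest by mean CPM at 1 uM TAL, the last 2 inside and first 2 outside the limit of 60, and any called by edgeR (none was). Lists of markers and pathway genes could not be used because no list at hand paired these identifiers with gene names. The lack of matches does not mean that the genes are unnamed. Other scalings, pseudocounts, count minimums, identifier sets, left-out libraries and a replicate block were tried.

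Totals were 8409618 to 13937318 counts per library, and a floor of 3 counts was used for genes at 0. Libraries of a group differed beyond sampling noise in every pair (chi-square over its degrees of freedom 13.6 to 89.3).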

Additional observations from a re-analysis of the deposited data

How the results depend on the processing

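Of the 60 members, 37 kept a difference from DMSO distal of at least 1 with a pseudocount of 2, 53 with size factors and 52 to 60 with a library left out. Their median difference was 1.46 with size factors, 2.05 with a pseudocount of 0.1 and 1.10 with 2, and 1.48 to 1.76 with a library left out. The conditions on group means were met by 139 genes with a pseudocount of 2, 430 without a count minimum, 342 with AMEX60DDU identifiers and 153 to 251 with a library left out. Of the 60, 37 were chosen again with a pseudocount of 2, 36 with 10 counts in 6 libraries, and 34 to 53 with a library left out. With the count minimum in 2 libraries, 30 of 60 genes chosen without 1 uM replicate 3 were above all 9 others in it.

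Across all genes edgeR called 10 against DMSO distal, 5 against 0.1 uM TAL and 0 against DMSO proximal. Without the low-count filter it called 4 and 3 in the first 2 comparisons. DESeq2 called 484, 434 and 535 in either direction, of which 190, 161 and 245 were higher at 1 uM TAL. Those higher calls held 26 of 57, 20 of 45 and 21 of 45 members with an adjusted p. Of all genes with an adjusted p, 0.467%, 0.448% and 0.667% were called higher. The rule used these contrasts, so nothing is read from the members' counts. Fitted on the 6 libraries compared, edgeR called 0, 0 and 2. The first of these fits had 1875 genes with an unadjusted p under 0.05, and the next 2895. With a library left out the counts were 0 to 13, 0 to 14 and 0 to 2. No member was called by edgeR under any setting, but edgeR called at most 14 of all genes in any of them. The cause of these differences was not tested.

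Replicate numbers did not pair the libraries: the mean correlation of deviations was -0.0045 over 18 same-numbered pairs, and each library's own number was best in 11 of 36 comparisons. With the replicate block edgeR called 0, 0 and 0 genes, and 1431, 1732 and 1983 had an unadjusted p under 0.05.

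Depth limits the weakest members, which hold as few as 10 counts in a 1 uM library, and groups of 3 pools limit every comparison.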
